A study of Mus musculus with 17 samples.

Results

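H3K9ac was compared between Sirt6 knockout (KO) and Sirt6 wild-type (WT) mouse embryonic stem cells without treatment. The comparison took 2 of the 17 samples, 1 chromatin immunoprecipitation library with sequencing (ChIP-seq) of each genotype. Its members were the H3K9ac regions of both peak lists, with peaks merged where they overlapped by 1 bp or more. There were 4819 such regions, made from 3593 KO peaks and 2789 WT peaks, out of 35952 peaks in the 9 peak lists of the series that held any. The other lists were for H3K56ac in untreated cells, for both marks after retinoic acid (RA), and for Sirt6 itself, and a separate table held windows that differed in 5-hydroxymethylcytosine. All positions are those of mouse build mm9, and genes at the regions were not analysed here.

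The KO and WT cells came from 129 strain mice and were kept on irradiated feeder fibroblasts in serum with leukaemia inhibitory factor. Feeders were reduced by a short plating step before the cells were used. The sources used here do not give the knockout allele, the number of clones or the number of cultures. The RA groups were KO and WT cells moved to medium without leukaemia inhibitory factor, given RA for 2 days and collected on the day that followed its withdrawal. Each group held 1 library, so differences between genotypes could not be checked in replicates and were not tested. Intervals are given at 95% and hold counting error alone, and the many regions of a library do not replicate its genotype.

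H3K9ac is the acetylation of lysine 9 of histone H3, a mark found around active gene starts and enhancers. Sirt6 is a chromatin-bound deacetylase that uses NAD to remove this mark and acetylation of lysine 56 on the same histone. It is known for repressing glycolytic genes and for its roles in DNA repair and genome stability. Regions at Sirt6 peaks of WT cells are therefore set apart from the other regions below.

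The libraries were of similar depth but unequal fragment length. After filtering, the KO library held 7217855 tags and the WT library 7719553. The fragment length that the peak caller estimated, and to which it extended each tag, was 212 bp in KO and 155 bp in WT. Longer extension can by itself raise the number of overlapping tags at a summit, and by how much was not measured here. Both lists went down to summits of 8 tags, and the median summit held 18 tags in KO and 21 in WT. To set libraries side by side, summit pileup, the number of extended tags that overlap at a summit, is given per 1000000 filtered tags of its library (PPM). The Sirt6 libraries gave 0 peaks in each of the 2 KO lists and 14510 peaks in WT. They were of unequal depth, with 40006795 and 48956556 filtered tags in KO and 2008232 in WT. The WT Sirt6 list went down to summits of 4 tags, with a median of 10, and held peaks of up to 38342 bp.

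Regions called in one genotype outnumbered those called in both. There were 2050 regions called in KO only (42.5% of all regions) and 1230 called in WT only (25.5%), against 1539 called in both. The peaks that overlapped the other list were 42.9% of the KO peaks and 55.9% of the WT peaks. KO-only regions were thus 1.67 times as many as WT-only regions (exact interval 1.55 to 1.79). This ratio was 0.615 when only peaks with a −log10 q of at least 10 were kept, so the excess was not seen at this limit. The limit was not equal in tags. Where the local background was lowest, 14 summit tags gave a −log10 q of 9.88 in KO and 11.3 in WT. Regions called in both full lists could also become one-sided: 923 of the 1230 WT-only regions reached the limit, while 1101 WT-only regions were counted there.

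Most KO-only regions were weak calls. Their median summit pileup was 2.22 PPM in KO, close to the 2.20 of WT-only regions in WT. The fold enrichment, which the authors' peak caller takes as summit over local background, was lower in KO-only than in WT-only regions, with medians of 6.35 and 9.93. The median −log10 q, which is larger for more certain calls, was 7.59 in KO-only regions and 13.9 in WT-only regions. Neither measure is on one scale, since the genome-wide background was 0.818 tags in KO and 0.640 in WT. Where the local background was lowest, 15 summit tags gave a fold enrichment of 8.79 in KO and 9.74 in WT. Regions called in both were stronger in either library, with a median of 3.74 PPM in KO and 3.76 in WT, and a median fold enrichment of 12.5 in KO and 14.8 in WT.

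The KO-only regions nearest to the q limit show what such calls hold. The lowest −log10 q of a KO-only region, 2.55, lay on chromosome 8 from 125626842 to 125627053, with 14 tags at the summit and a fold enrichment of 3.56. The next lay on chromosome 1 from 88200200 to 88200516, with 13 tags and a fold enrichment of 3.80. The corresponding lowest WT-only region, on chromosome 12 from 116852510 to 116852679, had a −log10 q of 3.86 with the same number of tags, 14, and a fold enrichment of 4.44. The KO list therefore reached lower in −log10 q at equal tag numbers. Both of these KO-only regions overlapped a WT Sirt6 peak, and the WT-only region did not.

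The strength of a call and Sirt6 occupancy were then looked at together, since 1203 KO-only regions (58.7%) held a WT Sirt6 peak, against 9.29% of those called in both and 0.732% of WT-only ones. All 4819 regions were divided into 4 bins of equal size by fold enrichment. In the lowest bin, with a fold enrichment of 1.37 to 6.57, a Sirt6 peak overlapped 969 of 1097 KO-only regions (88.3%, Wilson interval 86.3% to 90.1%), 24 of 56 regions called in both (42.9%) and 5 of 55 WT-only regions (9.09%, 3.95% to 19.6%). In the second bin the shares were 27.3% of 607 KO-only regions, 8.87% of 124 regions called in both and 0.212% of 471 WT-only regions. The excess of Sirt6 peaks in KO-only regions was thus present in both bins, and the KO-only share was far lower in the second.

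The KO-only share was lowest in the next bin and higher again among the strongest regions. Between fold enrichments of 9.59 and 14.6 it was 11.7% of 223 KO-only regions, against 1.17% of 427 regions called in both and 0.181% of 554 WT-only regions. Above that it was 34.1% of 123 KO-only regions (26.4% to 42.9%), against 11.1% of 932 called in both and 1.33% of 150 WT-only regions. In every bin the KO-only interval lay above that of the WT-only regions. KO-only regions with a fold enrichment over 20 were few, and 21 of these 34 overlapped a Sirt6 peak, against 91 of 535 regions called in both.

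**Figure D1:**
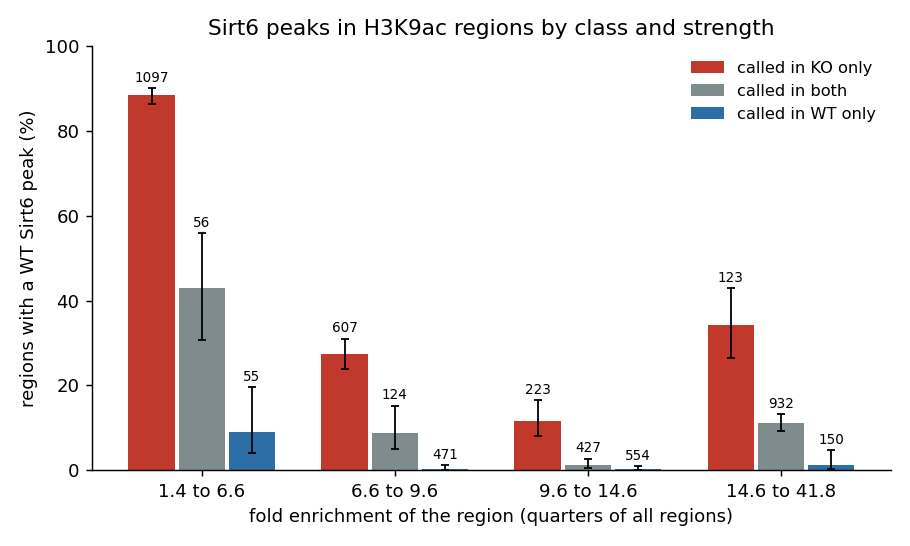
Share of H3K9ac regions overlapped by a WT Sirt6 peak (vertical axis, percent) in 4 bins of all regions by fold enrichment (horizontal axis), for regions called in KO only, in both and in WT only. Numbers above the bars are regions and error bars are Wilson 95% intervals; the KO-only bar is the highest in each bin, 88.3% in the lowest and 11.7% in the third bin.

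KO-only regions with and without a Sirt6 peak were alike in height and unlike in fold enrichment. The 1203 KO-only regions with a Sirt6 peak and the 847 without one had nearly equal summits, with medians of 2.22 and 2.08 PPM. Their fold enrichments differed, with medians of 5.66 and 8.24. Stronger calls were fewer among those with a Sirt6 peak: 168 of the 1203 reached a −log10 q of at least 10, against 430 of the 847 without.

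The difference in fold enrichment came with a difference in local background. The caller's fold is (pileup + 1)/(background + 1), so the local background can be recovered from each peak. It was the highest of the genome-wide tag density and the density in a 10000 bp window that includes the peak. In KO-only regions with a Sirt6 peak the median local background was 2.31 times the genome-wide value, and it was over 2 times that value in 792 of the 1203 regions (65.8%). In KO-only regions without a Sirt6 peak the median was 1.01 times, and 76 of 847 (8.97%) lay over 2 times. WT-only regions had a median of 1.07 times, with 73 of 1230 (5.93%) over 2 times.

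The contrast was as large among summits of equal height. Among regions with 12 to 20 tags at the summit, the 930 KO-only regions with a Sirt6 peak had a median local background of 2.30 times the genome-wide value (quartiles 1.90 and 2.78) and a median summit of 15 tags. The 568 KO-only regions without a Sirt6 peak had a median of 1.00 times (1.00 and 1.20) and a summit of 14 tags. The 832 WT-only regions without a Sirt6 peak also had a median of 1.00 times (1.00 and 1.14), with a summit of 15 tags. Raised local background was also found at Sirt6 peaks in the other classes. Shared regions with a Sirt6 peak had a median of 4.16 times the genome-wide value in KO (134 of 141 with a value over 2 times) and 2.08 times in WT (68 of 132), and in the 9 WT-only regions with a Sirt6 peak it was 5.62 times. Many of these summits are taller, and the window includes the summit. Among the 23 shared regions with a Sirt6 peak and 12 to 20 tags at the WT summit, the WT median was 1.00 times. WT tag density at the KO-only regions was not measured here, since the lists give values at called peaks only.

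**Figure D2:**
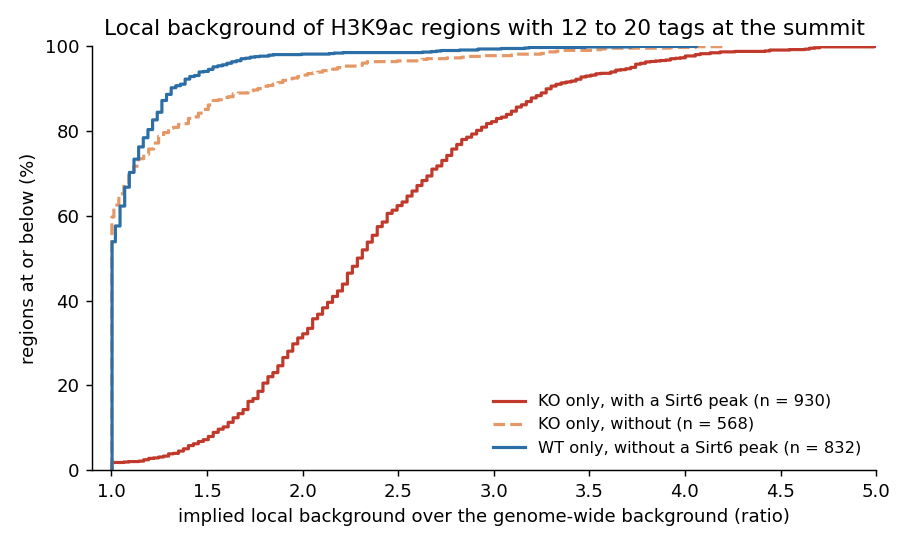
Cumulative share of regions (vertical axis, percent) by local background over genome-wide background (horizontal axis, ratio), for H3K9ac regions with 12 to 20 tags at the summit. The curve of KO-only regions with a Sirt6 peak lies to the right, with a median of 2.30, against 1.00 for KO-only regions without one and for WT-only regions without one.

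The position of the Sirt6 peaks also differed between classes. In the 1203 KO-only regions with a Sirt6 peak, the H3K9ac summit in KO lay a median of 73 bp (quartiles 31 and 145) from the nearest Sirt6 summit in WT, and 1025 (85.2%) lay within 200 bp. In the 143 regions called in both, this distance had a median of 9 bp (5 and 32.5). The Sirt6 peaks themselves were stronger at KO-only regions, with a median Sirt6 fold enrichment of 11.1, against 4.93 at regions called in both and 8.08 over the Sirt6 list. KO-only regions without a Sirt6 peak were mostly far from any: the median distance to a Sirt6 summit was 254430 bp, and 59 of them lay within 10000 bp.

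Among the KO-only regions outside chromosome 18, the 5 with the highest fold enrichment were strong in H3K9ac and were also called in the 6 other acetylation lists. The first, on chromosome 6 from 15554185 to 15554561, had 145 tags at its KO summit, or 20.1 PPM, and a fold enrichment of 30.6. Its H3K56ac summits were 25.4 PPM in KO and 3.72 in WT. After RA its H3K9ac was 15.4 PPM in KO and 13.5 in WT. The genotypes thus stood far apart in untreated H3K56ac and close together after RA.

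The same pattern held at the next of these regions. The region on chromosome 8 from 15442519 to 15442923 had 18.8 H3K9ac PPM in KO and no WT call, 28.9 PPM of H3K56ac in KO against 5.13 in WT, and after RA 6.63 of H3K9ac in KO against 5.75 in WT. The region on chromosome 3 from 113595516 to 113595884 had 14.8 H3K9ac PPM in KO, with 17.99 of H3K56ac in KO against 4.24 in WT, and 10.4 of H3K9ac after RA in KO against 9.62 in WT. On chromosome 8 from 42533761 to 42534149, the KO H3K9ac summit was 18.1 PPM, and that of H3K56ac was 24.6 in KO against 2.95 in WT. After RA its H3K9ac was 13.5 PPM in KO against 9.85 in WT, the widest ratio after RA among the 5 regions. These 4 regions overlapped a Sirt6 peak. The fifth, on chromosome 1 from 123561282 to 123561610 (12.2 PPM in KO), did not, and its H3K56ac was 18.2 PPM in KO against 3.72 in WT. Its H3K9ac after RA was 8.98 PPM in KO against 7.62 in WT. In all 5 regions WT cells therefore held an H3K56ac call, with no H3K9ac call, in the untreated state.

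The strongest WT-only regions were lower in height and had no Sirt6 peak, as was the case for 1221 of all 1230 WT-only regions. The first, on chromosome 13 from 45896151 to 45896354, had 7.51 PPM in WT and a fold enrichment of 27.4. It had no KO call for H3K56ac, 5.65 PPM of H3K56ac in WT, and after RA 3.22 of H3K9ac in KO against 3.99 in WT. The second, on chromosome 1 from 20700457 to 20700692, had 7.64 PPM in WT and 4.62 of H3K56ac in WT. None of the 5 highest WT-only regions was called in untreated KO for H3K56ac, and each was called for H3K9ac after RA in both genotypes. Of all WT-only regions, 3.66% were called in untreated KO for H3K56ac. For H3K9ac after RA it was 38.5% in KO and 32.9% in WT. The remaining 3, at X:108135676-108135878, 1:102215277-102215530 and 5:87772155-87772344, had WT summits of 5.83, 5.83 and 6.48 PPM.

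In the 1539 regions called in both genotypes, the typical summit was about equal and the spread between regions was wide. The median log2 ratio of KO to WT summit pileup (PPM) was 0.02, with quartiles of -0.45 and 0.55 and a range of -2.10 to 3.59. A KO value at least 1.5-fold higher was found in 358 regions (23.3%) and one at least 1.5-fold lower in 290 (18.8%). Counted from the median ratio in place of equality, these were 350 regions (22.7%) higher and 301 (19.6%) lower. Across these regions the log2 levels in KO and WT had a Pearson r of 0.643 and a Spearman rho of 0.588, as a description over 1539 regions of 2 libraries.

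The sign of the typical ratio depends on the scale. Dividing also by fragment length put the median log2 ratio at -0.44, with 176 regions higher and 635 lower, and leaving the tag numbers unscaled put it at -0.080. Fold enrichment was lower in KO at the median, with a log2 ratio of -0.22 (quartiles -0.57 and 0.14), 120 regions (7.8%) at least 1.5-fold higher and 374 (24.3%) at least 1.5-fold lower. Scaling pileup to tags or to fragment length shifts all regions alike and so leaves differences between sets of regions in place. This holds for the division alone. Whether the longer extension itself acted alike on all regions was not tested. Fold enrichment does not shift regions alike. As given above, it is not on one scale in the 2 libraries, and equal tag numbers over the lowest background give a lower fold in KO.

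Peak length and summit position were close once fragment length is set beside them. The KO peak was longer than the WT peak in 1467 of 1539 regions (95.3%), by a median of 74 bp (quartiles 48 and 107), and the fragment lengths themselves differ by 57 bp. In units of its own fragment length, the median peak was 1.21 in the KO list and 1.20 in the WT list. Highest summits lay a median of 18 bp apart (7 and 37), and 1484 regions (96.4%) had them within 100 bp. The largest distance was 445 bp.

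Relative to all shared regions, those with a Sirt6 peak were higher in KO. In these 143 regions the median summit was 14.4 PPM in KO and 7.00 in WT. Their median log2 ratio of 0.80 (quartiles 0.22 and 1.81) lay 0.79 above that of all shared regions. KO was at least 1.5-fold higher in 80 of them (55.9%) and at least 1.5-fold lower in 2 (1.40%). In the 1396 shared regions without a Sirt6 peak the median log2 ratio was -0.05, with 278 (19.9%) higher and 288 (20.6%) lower. By fold enrichment the contrast was smaller: the median log2 ratio was 0.15 at regions with a Sirt6 peak, which is 0.36 above that of all shared regions, with 43 of 143 at least 1.5-fold higher in KO and 4 lower. Fold enrichment is taken over a window that includes the summit, so a taller summit also raises its own background. Dividing pileup also by fragment length, which leaves the difference of 0.79 in place, put the median log2 ratio of the 143 regions at 0.35. The difference was 1.21 on autosomes only. Without regions called in all 8 lists it rested on 8 regions with a Sirt6 peak, and its 0.66 had an interval of -0.33 to 1.74 that holds 0.

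**Figure D3:**
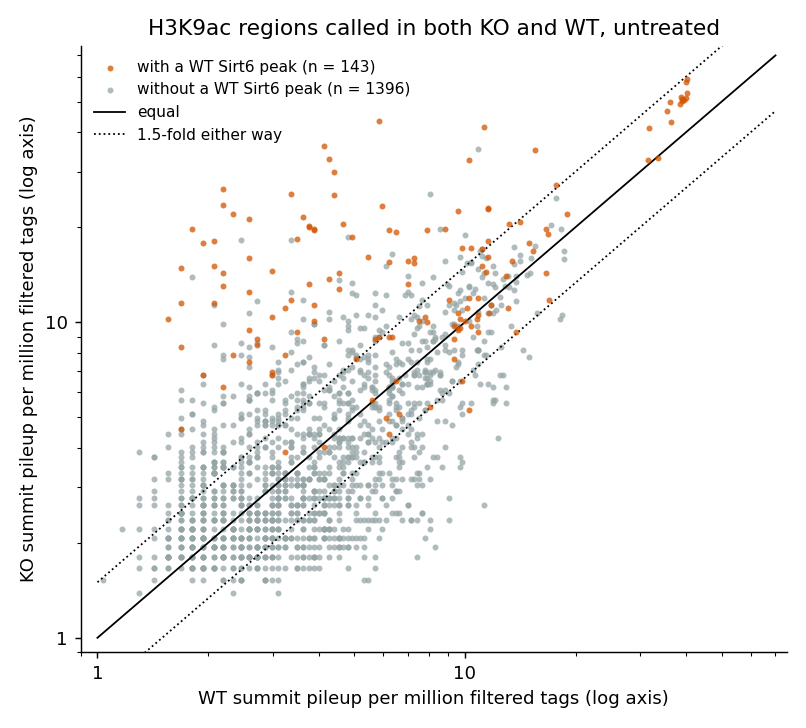
KO summit pileup (vertical axis) against WT summit pileup (horizontal axis), both in PPM on log axes, for the 1539 H3K9ac regions called in both genotypes. Points with a WT Sirt6 peak (143) lie mostly above the line of equality, with medians of 14.4 in KO and 7.00 in WT, and points without one (1396) lie on both sides.

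The ratio also varied with the level of the regions. The shared regions were also divided into 4 bins by their mean level, and the median log2 ratios were -0.01, -0.19, -0.01 and 0.21 from the lowest bin to the highest. Most shared regions with a Sirt6 peak, 110 of 143, fell in the highest bin. Within that bin the median log2 ratio was 0.54 in regions with a Sirt6 peak and 0.10 in the 275 without. At the top of the scale summits are capped, because 1 tag was kept per position: the highest possible pileup is 424 in KO and 310 in WT, and both lists hold a peak at its cap. Only 25 KO peaks and 15 WT peaks passed the midpoint of their cap.

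Regions that every acetylation list held differed from the rest. Of the 1539 shared regions 995 (64.7%, 62.2% to 67.0%) were called in all 8 lists, and they had a median log2 ratio of 0.17, with 307 at least 1.5-fold higher in KO and 120 lower. The other 544 had a median of -0.24, with 51 higher and 170 lower. Sirt6 peaks overlapped 135 of the 995, where the median was 0.91, and the 860 without a Sirt6 peak had a median of 0.10. The acetylation lists were called without a control library, so signal that any library would show at these regions was not taken out.

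The 5 shared regions with 1 peak in each list and the highest KO to WT ratios all overlapped a Sirt6 peak and were called in all 8 lists. They were chosen by these ratios, which therefore only describe them, whereas their H3K56ac and RA values come from other libraries. Regions chosen as extremes in a given pair of libraries tend to lie closer in another pair. Their narrower ratios after RA therefore do not measure an effect of RA. The highest, on chromosome 2 from 47497966 to 47498352, had 191 tags at its summit in KO and 17 in WT, or 26.5 and 2.20 PPM, a ratio of 12.02 (exact interval for counting error, 7.31 to 21.1). Its Sirt6 peak had a fold enrichment of 28.9. H3K56ac there was 31.5 PPM in KO and 8.09 in WT, and H3K9ac after RA was 8.68 in KO and 4.93 in WT. The genotypes were thus far apart in both untreated marks and closer after RA.

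The others gave like values. The region on chromosome 12 from 52269197 to 52269530 had 142 tags in KO and 14 in WT, a scaled ratio of 10.8 (6.26 to 20.3). On chromosome 11 from 71197837 to 71198260 there were 170 tags in KO and 17 in WT, a scaled ratio of 10.7 (6.49 to 18.8). In these regions H3K9ac after RA was 6.54 and 6.93 PPM in KO, against 5.28 and 5.16 in WT. The region on chromosome 1 from 25176838 to 25177191 had a ratio of 9.45 (5.79 to 16.4), and that on chromosome 19 from 22002888 to 22003273 one of 9.20 (5.37 to 16.9). In all 5 the untreated H3K56ac summit was also higher in KO, at 17.99 to 31.5 PPM against 3.47 to 12.3 in WT.

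The 5 lowest ratios were in regions without a Sirt6 peak, which was also so for 1396 of all 1539 shared regions. The lowest, on chromosome 16 from 56411830 to 56412065, had 19 tags in KO and 87 in WT, or 2.63 and 11.3 PPM, a ratio of 0.234 (0.134 to 0.387). Its H3K56ac was 2.77 PPM in KO and 8.60 in WT, and its H3K9ac after RA was 5.27 in KO and 7.74 in WT. The region on chromosome 12 from 36034693 to 36034930 had 14 tags in KO and 64 in WT, also a ratio of 0.234 (0.121 to 0.422), and no KO call for H3K56ac. The lowest ratios were thus smaller departures from equality than the highest ones.

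The other 3 of these regions had ratios between 0.244 and 0.267. On chromosome 15 from 39536389 to 39536624 the summits were 1.80 PPM in KO and 7.38 in WT. On chromosome X from 14759548 to 14759780 they were 2.36 in KO and 9.07 in WT, and on chromosome 1 from 28456996 to 28457282 they were 2.08 in KO and 7.77 in WT. H3K9ac after RA was still lower in KO in each of the 5, at 2.83 to 5.27 PPM in KO against 3.28 to 7.74 in WT, with ratios nearer to 1. These regions too were chosen by the untreated ratio, so the narrowing does not measure an effect of RA.

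**Figure D4:**
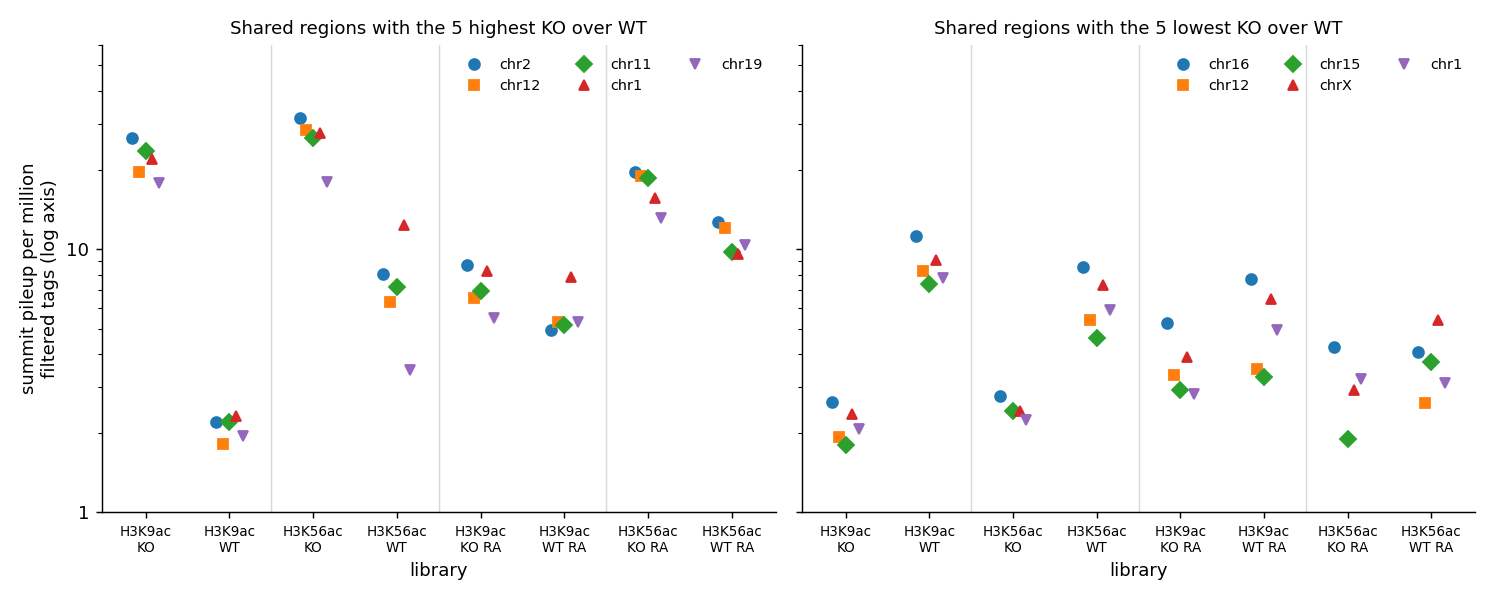
Summit pileup in PPM (vertical axis, log scale) in the 8 acetylation libraries (horizontal axis, KO left of WT in each pair) for the 5 shared regions with the highest and the 5 with the lowest KO to WT ratio of untreated H3K9ac. KO and WT are apart for both marks in untreated cells and mostly closer after RA. The regions were chosen by the untreated H3K9ac ratio, so values in other libraries tend to lie closer. A missing point is a library with no call, as for KO H3K56ac on chromosome 12.

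Among shared regions with a high fold enrichment, those named by the highest KO value also had Sirt6 peaks. The region on chromosome X from 60379562 to 60379972 had 312 tags in KO and 45 in WT, or 43.2 and 5.83 PPM, a ratio of 7.42 (5.41 to 10.4), while its fold enrichment was 36.8 in KO and 23.98 in WT. On chromosome 12 from 50352097 to 50352456 the summits were 41.6 PPM in KO and 11.3 in WT, a ratio of 3.69 (2.90 to 4.74), with fold enrichments of 37.9 in KO and 33.8 in WT. Fold enrichment thus differed much less between genotypes than tag number did at these regions. At the chromosome X region the local background was 9.17 times the genome-wide value in KO and 1.43 times in WT. Its window includes the summit, so a taller summit raises its own background and holds down its fold. At 13:86453014-86453370, 15:67742149-67742496 and 14:105445262-105445606 the ratios of scaled pileup were 2.25, 3.19 and 1.54.

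The genotype difference was then read in libraries that took no part in forming the regions. Of the shared regions, 1108 also had peaks in both untreated H3K56ac lists, and there the median log2 ratio of KO to WT H3K56ac was 0.10. It was 0.68 at the regions where H3K9ac was at least 1.5-fold higher in KO (327 of the 358 had both calls), and 285 of the 327 lay above 0. It was 0.00 at regions within 1.5-fold for H3K9ac (628 of 891), and -0.66 at those at least 1.5-fold lower (153 of 290), where 24 of the 153 lay above 0. The ratios of both marks thus ran together, with a Pearson r of 0.732 and a Spearman rho of 0.687 over the 1108 regions, which share their genotype libraries' depth and fragment length differences.

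After RA the spread between genotypes was narrower for the same regions. There 1394 shared regions had H3K9ac calls in both RA lists, and the median log2 ratio was 0.02 in the regions that were higher in untreated KO (347), -0.13 in those within 1.5-fold (782) and -0.17 in those that were lower (265). Over all 1394 regions, 25 (1.79%) were at least 1.5-fold higher and 60 (4.30%) at least 1.5-fold lower in KO after RA. Ratios before and after RA had a Pearson r of 0.274 and a Spearman rho of 0.233. The higher and lower sets were formed by the untreated ratio, so some narrowing in other libraries comes with that choice. Fragment lengths were 204 bp in KO and 198 bp in WT after RA, closer than the 212 and 155 bp of the untreated libraries, and their part in this contrast was not tested.

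Set against the other genotype comparisons, the untreated H3K9ac lists shared the smallest part of their regions. The share of regions called in both was 31.9% for untreated H3K9ac, 38.0% for untreated H3K56ac, 65.7% for H3K9ac after RA and 62.3% for H3K56ac after RA. The share of shared regions at least 1.5-fold apart in either direction was 42.1%, 40.2%, 8.24% and 14.9% in the same order. Both untreated comparisons also had the largest gaps in fragment length, 224 bp in KO and 175 bp in WT for H3K56ac, against 227 bp in KO and 207 bp in WT for H3K56ac after RA.

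The classes of regions were found to different extents in the other lists. KO-only regions with a Sirt6 peak were seldom called elsewhere: 905 of 1203 (75.2%) were in none of the 6 other acetylation lists. H3K56ac peaks overlapped 18.2% of them in KO and 8.31% in WT, and H3K9ac peaks after RA overlapped 6.82% in KO and 3.08% in WT. KO-only regions without a Sirt6 peak were more widely called, with 225 of 847 (26.6%) in none of the 6 lists. There H3K56ac overlapped 44.6% in KO and 25.1% in WT, and H3K56ac after RA 50.4% in KO and 41.8% in WT. The summit heights of these sets were nearly equal, as given above, but the strength of the calls was not.

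WT-only regions were marked mainly by their near absence from the untreated KO list of the other mark. H3K56ac peaks overlapped 45 of 1230 in KO (3.66%, 2.75% to 4.86%) and 603 in WT (49.0%, 46.2% to 51.8%). The same lists overlapped 29.1% of KO-only regions in KO and 15.3% in WT, and 74.5% and 93.6% of regions called in both. The KO H3K56ac library was shallower, with 5782181 filtered tags and 2235 peaks, against 7790807 and 2750 in WT. The part of depth in this contrast was not tested. Of the WT-only regions, H3K9ac after RA overlapped 38.5% in KO and 32.9% in WT, and H3K56ac after RA 9.92% in KO and 12.03% in WT. The KO list of H3K9ac after RA was the longer one, with 3147 peaks against 2626. It also held more of the other classes than the WT list. The shares were 26.3% against 19.3% of KO-only regions and 96.0% against 91.8% of those called in both. In each of the 6 lists, peaks overlapped between 74.5% and 96.0% of the regions called in both genotypes, and 10 of these 1539 were in none.

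**Figure D5:**
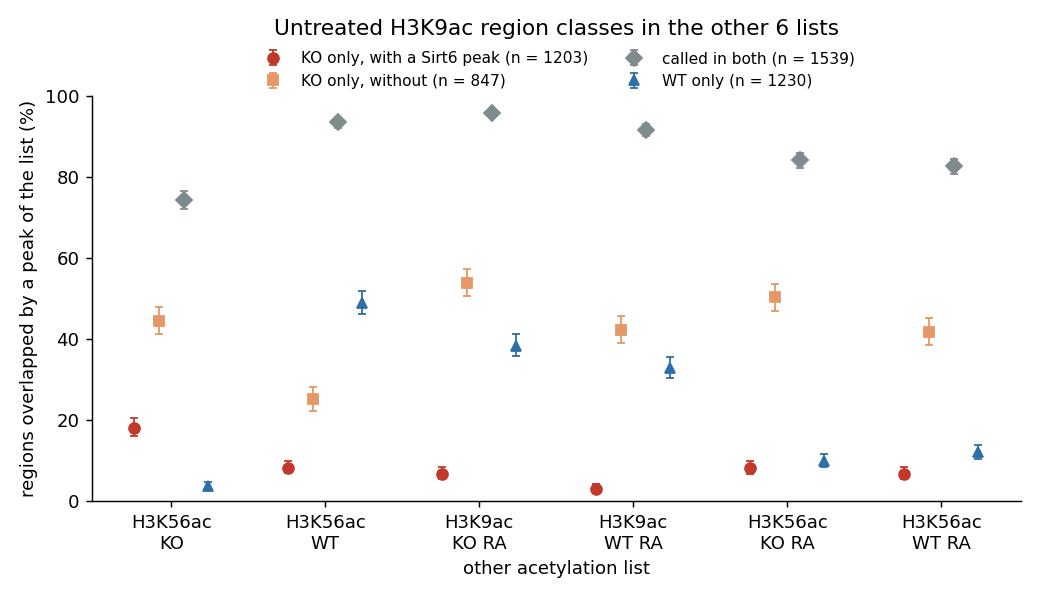
Share of regions overlapped by a peak of each of the 6 other acetylation lists (vertical axis, percent; lists on the horizontal axis, KO left of WT) for 4 classes of untreated H3K9ac regions, with Wilson 95% intervals. KO-only regions with a Sirt6 peak lie at 18.2% or below in each list, and WT-only regions lie at 3.66% in KO H3K56ac and 49.0% in WT H3K56ac.

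The excess of KO-only over WT-only regions was spread over the autosomes. KO-only regions were the more numerous on 19 of 19 autosomes, and they made up 64.2% of the one-sided autosomal regions (exact interval 62.4% to 65.9%). The share ran from 52.2% on chromosome 13 to 77.6% on chromosome 11. Chromosome X stood apart, with 107 KO-only, 143 shared and 119 WT-only regions, so that KO-only regions were 47.3% of the one-sided ones (40.7% to 54.1%).

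The share of KO-only regions at a Sirt6 peak differed between chromosomes as well. It was 81.4% on chromosome 11 (96 of 118), 49.3% on chromosome 14 (35 of 71) and 15.9% on chromosome X (17 of 107). The Sirt6 list held 1233 peaks on chromosome 11 and 256 on chromosome X. Over the 19 autosomes the number of KO-only regions had a Spearman rho of 0.768 with the number of Sirt6 peaks, against 0.237 for KO-only regions without a Sirt6 peak, 0.239 for shared and 0.156 for WT-only regions. These are descriptions over chromosomes that differ in size. The count of KO-only regions includes those that overlap a Sirt6 peak, so its rho is not a separate observation from that overlap. Among shared regions the median log2 ratio by autosome ran from -0.17 on chromosome 10 to 0.26 on chromosome 14.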

How the data were processed

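Per the submitters' processing notes, BWA 0.5.9 placed the reads on build mm9 of the mouse genome and MACS2 2.0.10 called the peaks. The notes also name Picard, for a step not given in the sources used here. Per the file headers, each library was called on its own, with a q limit of 0.01, 1 tag kept per position, a local background window of 10000 bp, and no control library for the acetylation lists; Sirt6 peaks were called against whole-cell extract. In the deposited lists each peak has a summit pileup (a signal not scaled to depth), a fold enrichment, and its p and q on the −log10 scale, all from the authors. The deposited 5-hydroxymethylcytosine table gives read counts and RPKM per window of 500 bp, with edgeR's log2 fold change, log2 abundance and p-value by the authors; here only the positions and the sign of the log2 change were used.

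From these, peaks of the KO and WT lists were merged, summit pileup was scaled to 1000000 filtered tags (file headers), and the highest peak of a list stood for its region. Shares carry Wilson and ratios exact (Clopper-Pearson) intervals. Members, region sets and alternatives were chosen with earlier results of these data known. Named regions lay on assembled chromosomes other than 18: the 5 highest fold enrichments per class (KO value for shared regions) and the 5 highest and lowest KO to WT pileup ratios among shared regions with 1 peak in each list. The merging was tested on simulated data. Gene positions and sequence of build mm9 were not used here, so regions carry no gene names. Alternatives were overlap of 50% of the shorter peak, a −log10 q limit of 10, equal list lengths, autosomes only, no regions of all 8 lists, peaks joined within 1000 bp, other scalings and 1 peak per list. The tools were pandas 2.3.3, numpy 2.4.6 and scipy 1.17.1 under Python 3.11.15, with matplotlib 3.10.9 for plots.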

Additional observations from a re-analysis of the deposited data

Results flagged for a closer look

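At shared H3K9ac regions with a WT Sirt6 peak the median genotype ratio stood on opposite sides of 0 in untreated cells and after RA. Over the 141 of these 143 regions that were also called in both RA lists, the median log2 ratio of KO to WT summit pileup was 0.73 in untreated cells and -0.11 after RA. Dividing also by fragment length, an alternative chosen after seeing the data, put these medians at 0.28 in untreated cells, whose fragment lengths were 212 bp in KO and 155 bp in WT, and at -0.16 after RA, with 204 bp in KO and 198 bp in WT. Without that division, KO was at least 1.5-fold higher in 7 of the 141 after RA and at least 1.5-fold lower in none of them. The medians have opposite signs on both scales, but each genotype and condition held 1 library and the difference was not tested. At the 1253 shared regions without a Sirt6 peak that both RA lists held, the median per tag was -0.04 in untreated cells and -0.10 after RA. The negative sign after RA was therefore not particular to regions with a Sirt6 peak. The Sirt6 peaks come from untreated WT cells.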

How the results depend on the processing

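With peaks of a −log10 q of at least 10, the KO-only regions numbered 677, their ratio to WT-only regions reversed to 0.615, the median length difference was 81.5 bp, and the KO-only minus WT-only difference in Sirt6 overlap was 21.8 percentage points, against 58.0 with the lists as deposited. With the Sirt6 list kept whole at that limit, an alternative chosen after seeing the data, it was 25.03. With lists of equal length the KO-only regions numbered 1273, the ratio was 1.01 and the Sirt6 difference 41.9; equal list lengths bring the KO-only and WT-only counts together by construction. On autosomes only the ratio was 1.79 and the Sirt6 difference 61.3, and the excess of the log2 pileup ratio at shared regions with a Sirt6 peak was 1.21, against 0.79. Without regions called in all 8 lists that excess was 0.66, with an interval of -0.33 to 1.74. Without regions called in all 8 lists, 544 shared regions were left, the median log2 pileup ratio turned to -0.24 with 51 regions higher and 170 lower, the median log2 fold enrichment ratio was -0.41 and the length difference 55 bp. The median log2 pileup ratio also turned to -0.080 with unscaled pileup and to -0.44 per filtered tag and base of fragment length, with 176 regions higher and 635 lower. Counting from the median ratio, and fragment length scaling of the RA contrast, were also added after seeing the data. Of 114 values recomputed under the alternatives, 87 stayed within their interval or within 1.5 times the count, 23 moved and 4 reversed. Some of the 87 could not change. Leaving out regions called in all 8 lists removes no KO-only or WT-only region. Scaling of pileup cancels in the excess of the log2 ratio at shared regions with a Sirt6 peak. No paired analysis was possible because each group held 1 library and the labels give no replicate numbers.

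The effect of depth was not tested. Signal below the calls of a library was not measured here, and no difference here can be set against variation between cultures.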

Other observations

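Regions were seldom close to each other. Within 10000 bp of another H3K9ac region lay 178 of the 2050 KO-only regions (8.68%), 234 of the 1539 regions called in both (15.2%) and 145 of the 1230 WT-only regions (11.8%). The unplaced contigs named Un_random went against the autosomes, with 11 KO-only regions, 64 called in both and 30 WT-only. The remaining sequences outside the autosomes, X and Y did not, with 21 KO-only regions, 37 called in both and 15 WT-only.

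Few H3K9ac regions of any class lay near windows that the authors' deposited table gives as changed in 5-hydroxymethylcytosine. 5-hydroxymethylcytosine is the oxidised form of methylcytosine made by Tet enzymes. The share to be found over the whole genome was not computed, so the counts show neither an excess nor a lack of such windows. Of 2218 windows higher in KO, some lay within 1000 bp of 13 KO-only regions (0.634%), 2 regions called in both (0.130%) and 2 WT-only regions (0.163%). Windows lower in KO, 1562 in all, lay near 13 KO-only regions (0.634%), 10 regions called in both (0.650%) and 2 WT-only regions (0.163%).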
